A study of Mus musculus with 10 samples.

Results

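The 10 genes described here make, break down or regulate the polyamines putrescine, spermidine and spermine, and were chosen by gene symbol, matched through the Ensembl identifiers of the deposited table. All 10 were found among its 55359 genes, and all 10 passed the filter on low values (at least 1 FPKM in 5 or more libraries), as did 13324 genes in all. Kidney messenger RNA was measured in 5 libraries from male mice whose kidneys had 30 min of ischaemia and then 24 h of reperfusion (IRI, labelled AKI) and in 5 libraries from male mice after sham surgery (labelled Ctrl). The labels state no transgene, diet, strain or age for these mice. They also do not say that the libraries are of separate animals, and the p-values then cover only library-to-library spread, which may be technical. Library totals were 13147899 to 17307039 counts in IRI and 13199234 to 18603272 in sham.

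Polyamines are small cations that bind nucleic acids and are needed for growth and translation. Ornithine decarboxylase (Odc1) makes putrescine, S-adenosylmethionine decarboxylase (Amd1) supplies propylamine groups from the methionine product S-adenosylmethionine, and spermidine synthase (Srm) and spermine synthase (Sms) add those groups. Breakdown runs through the acetyltransferase Sat1 and polyamine oxidase (Paox), or directly through spermine oxidase (Smox). Both oxidases release hydrogen peroxide and an aldehyde. In the mouse kidney Odc1 is known as an androgen-responsive gene of the proximal tubule in males, and Sat1 as a gene induced by renal ischaemia and reperfusion in rats.

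In IRI kidneys the transcript of the first enzyme of synthesis was lower and those of the breakdown enzymes were higher. Odc1 fell to 0.314 times its sham level, while Smox rose 5.27-fold, Paox 1.64-fold and Sat1 1.52-fold. The rest of synthesis was divided, since Srm rose 1.91-fold and Amd1 1.49-fold, whereas Sms fell to 0.669 times its sham level. The antizyme inhibitor Azin1 rose 1.26-fold, and the antizyme Oaz1 and the salvage enzyme Mtap were not called. These folds come from edgeR's quasi-likelihood test on counts with TMM factors, called at a Benjamini-Hochberg adjusted p under 0.05, and they run below the ratios of mean FPKM, which is scaled by library totals. With library totals in place of TMM factors, log2 fold changes of all tested genes were higher by a median of 0.25.

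By that test 6 of the 10 genes were called higher, against 34.5% of all tested genes, and 2 were called lower, against 32.4%. Called in either direction were 8 of 10, against 66.9%. At least 2-fold, 1 of 10 was higher (11.9% of all tested genes) and 1 of 10 lower (15.0%). The FPKM of IRI and sham libraries did not overlap in 7 of the 10 genes, 6 higher (36.7% of all tested genes) and 1 lower (18.6%), where 55.3% of all tested genes showed no overlap in either direction. The median log2 fold change was 0.45 over the 10 genes and 0.05 over all tested genes, and the median of its absolute size was 0.59 over the 10 genes and 0.56 over all tested genes. Most tested genes were called, so a call by itself sets none of the 10 apart.

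**Figure D1:**
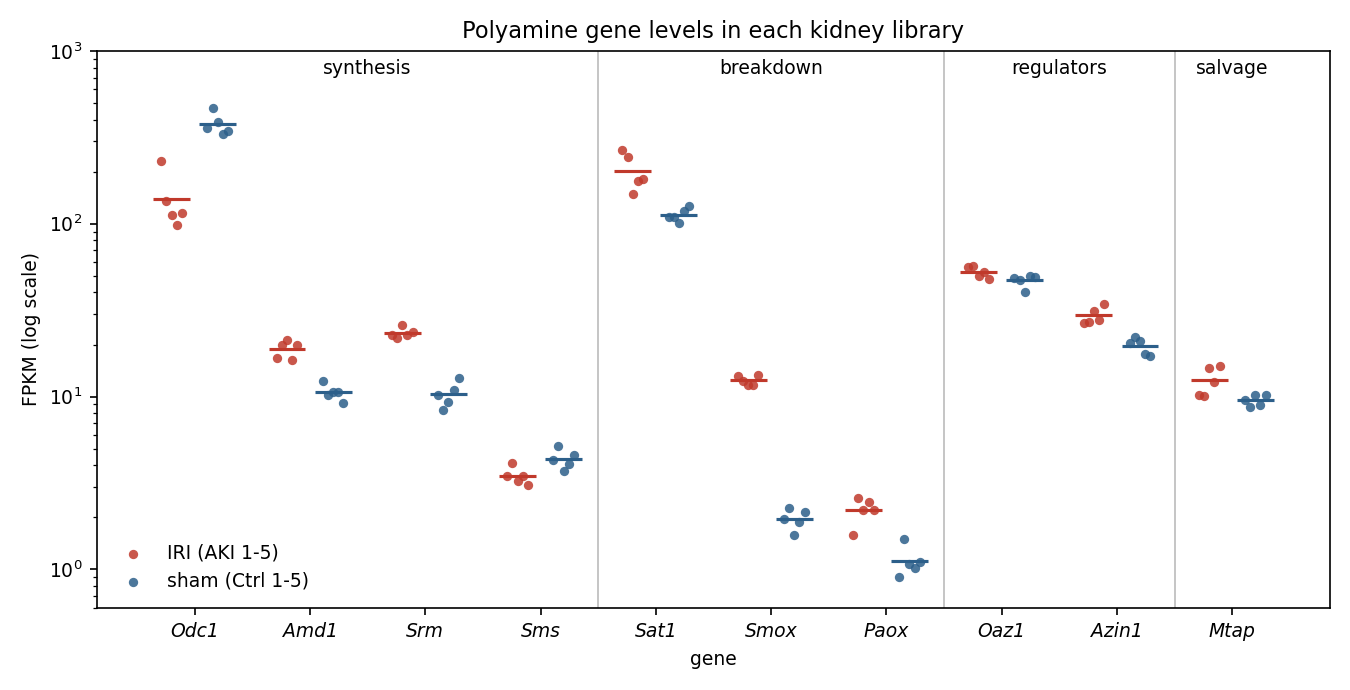
FPKM of the 10 genes (log axis) in each library, IRI left of sham, with a line at each group mean of 5 libraries. Odc1 lies at 98.6 to 230.0 FPKM in IRI, against 328 to 465 in sham, and Smox at 11.6 to 13.2 in IRI, against 1.58 to 2.26 in sham.

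The promoters of Odc1 and Smox, the genes of largest decrease and increase among the 10, are shown to place both genes in the genome. They come from RefSeq (GRCm38.p6), run 5′ to 3′ from 250 bases before to 50 bases after the annotated start, and carry capitals at each match to the GC box GGGCGG on either strand. The Odc1 window is chr12:17544623-17544922 and the Smox window chr2:131491612-131491911, both on the plus strand.
Odc1: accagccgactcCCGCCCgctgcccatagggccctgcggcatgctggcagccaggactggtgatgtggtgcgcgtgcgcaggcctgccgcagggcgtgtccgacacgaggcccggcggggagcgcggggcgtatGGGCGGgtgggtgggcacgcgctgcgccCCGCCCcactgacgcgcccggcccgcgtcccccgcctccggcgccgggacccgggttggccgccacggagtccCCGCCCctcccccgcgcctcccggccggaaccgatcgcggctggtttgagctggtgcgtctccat
Smox: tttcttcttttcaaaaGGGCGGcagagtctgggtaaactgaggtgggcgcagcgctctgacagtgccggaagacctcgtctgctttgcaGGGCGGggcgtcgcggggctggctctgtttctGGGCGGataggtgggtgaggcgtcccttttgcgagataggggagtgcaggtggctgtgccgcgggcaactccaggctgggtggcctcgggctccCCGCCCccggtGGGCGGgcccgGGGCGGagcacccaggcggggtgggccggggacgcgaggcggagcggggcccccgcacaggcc
Promoter windows were matched for 8 of the 10 genes. Odc1 held 4 GC boxes and Smox 6, and 35.7% of all 32851 promoter windows held at least 1. Both windows were rich in G and C, at 78% for Odc1 and 71% for Smox, with a median of 52.7% over all windows. Of the other motifs searched on both strands, Smox held 1 match to TGACNNNGC, the core of the antioxidant response element (12.4% of all windows), and Odc1 held 3 matches to GCGTG (32.4%). Neither window held CACGTG (7.15% of all windows), TGANTCA (7.81%), TGACGTCA (1.79%), TATAAA (13.6%) or ACGTG (19.6%), the last of which CACGTG contains. No match to these motifs shared a base with a GC box in either window, and a match is a description of the letters only.

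Odc1, the rate-limiting enzyme of putrescine synthesis, had 230.0, 135, 113, 98.6 and 115 FPKM in IRI libraries 1 to 5, against 358, 465, 388, 328 and 343 FPKM in sham libraries 1 to 5. Every IRI library lay below every sham library, and IRI library 1 lay nearest to the sham range. Odc1 averaged 138 ± 52.8 FPKM in IRI and 376 ± 54.0 in sham (SD, n = 5 each), and fell by 1.67 ± 0.25 on the log2 scale (SE, edgeR adjusted p = 8.27e-05). Among all tested genes, 7.84% had a lower fold change. In the deposited coordinates (GRCm39) Odc1 lies on chromosome 12 from 17594795 to 17601506 on the plus strand.

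Markers of the proximal tubule were lower in IRI, as Odc1 was. All 10 proximal tubule markers were called lower in IRI, where 32.4% of all tested genes were called lower. Their summed level was 230.1 to 1174 FPKM in IRI, against 3123 to 3652 FPKM in sham. IRI library 1 was the highest IRI library in this sum, at 1174 FPKM, where the other IRI libraries had 230.1 to 581, and it was also the highest in Odc1. Other libraries did not keep the same order. IRI library 3 had 581 FPKM of markers and 113 of Odc1, and IRI library 2 had 537 and 135. Sham library 3 had the lowest marker sum of the sham libraries, at 3123 FPKM, and 388 FPKM of Odc1, which only sham library 2 exceeded. Mitochondrial rRNA took 2.31% of the counts of IRI library 1 and 0.214% to 0.450% of those of IRI libraries 2 to 5. Without IRI library 1 Odc1 was at -1.96 on the log2 scale. In bulk tissue fewer cells of a type and less RNA per cell cannot be told apart, and the part of proximal tubule loss in the fall of Odc1 was not tested.

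**Figure D2:**
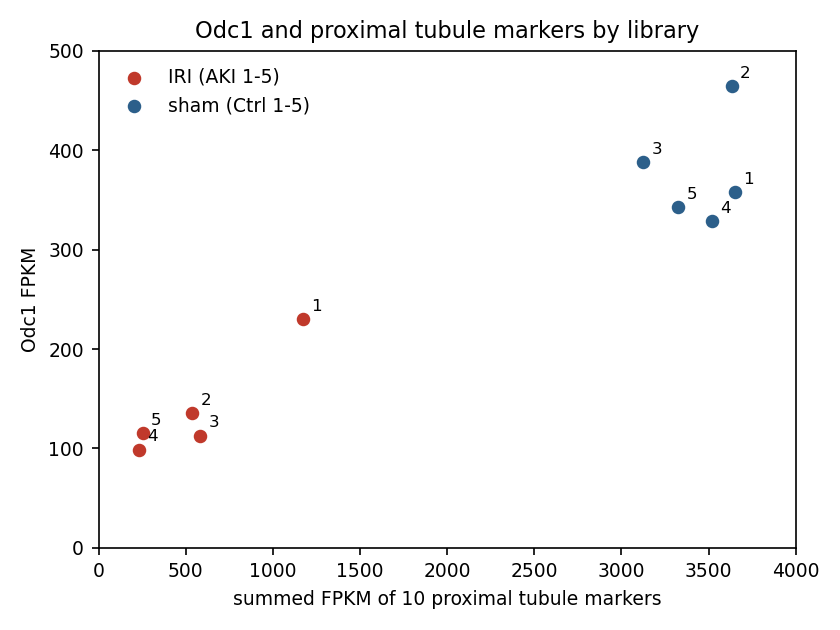
Odc1 FPKM (y axis) against the summed FPKM of 10 proximal tubule markers (x axis) for each library, with replicate numbers beside the points. The IRI libraries lie at 98.6 to 230.0 FPKM of Odc1 and 230.1 to 1174 FPKM of markers, and the sham libraries at 328 to 465 and 3123 to 3652.

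Amd1, which commits S-adenosylmethionine to polyamine synthesis, had 16.65, 19.96, 21.3, 16.2 and 19.8 FPKM in IRI libraries 1 to 5, against 12.3, 10.2, 10.7, 10.6 and 9.17 FPKM in sham libraries 1 to 5. The groups did not overlap, and the lowest IRI library lay above the highest sham library. The mean was 18.8 ± 2.24 FPKM in IRI and 10.6 ± 1.14 in sham (SD, n = 5 each), and Amd1 rose by 0.58 ± 0.10 on the log2 scale (SE, edgeR adjusted p = 0.000302). Amd1 lies on chromosome 10 from 40163454 to 40178184 on the minus strand.

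Amd1 has a near-identical copy, Amd2, on the same chromosome. In transcripts of GENCODE M21 (GRCm38), 61.6% of the 150-base windows of Amd2 also occurred in Amd1, and 53.4% of those of Amd1 in Amd2. Reads of this length can thus come from either gene. The stretch below, at the start of both transcripts, is shown because it is the same in both genes. It holds the short upstream reading frame (capitals, start to stop codon) through which polyamines are known to restrain translation of Amd1 in mammals. The 30 bases lie at chr10:40302151-40302180 in Amd1 and at chr10:35711856-35711885 in Amd2, both on the minus strand (RefSeq, GRCm38.p6).
Amd1: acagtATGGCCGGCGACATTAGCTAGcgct
Amd2: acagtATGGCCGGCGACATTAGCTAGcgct
Amd2 itself was counted at 0.82 to 1.61 FPKM in IRI and 0.32 to 0.71 FPKM in sham, too low for the filter. With its counts added to those of Amd1, the log2 fold change of Amd1 was 0.58 (edgeR adjusted p = 0.000313). Reads that fit both genes may be missing from both counts, since no source used here says how they were counted.

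Srm, which turns putrescine into spermidine, had 22.6, 21.8, 26.1, 22.7 and 23.7 FPKM in IRI libraries 1 to 5, against 10.2, 8.40, 9.30, 10.8 and 12.7 FPKM in sham libraries 1 to 5. All IRI libraries were above all sham libraries and close to each other. Srm averaged 23.4 ± 1.64 FPKM in IRI and 10.3 ± 1.65 in sham (SD, n = 5 each), with a log2 fold change of 0.93 ± 0.12 (SE, edgeR adjusted p = 2.01e-05). Srm lies on chromosome 4 from 148675960 to 148679450 on the plus strand.

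Sms, which turns spermidine into spermine, had 3.48, 4.15, 3.27, 3.47 and 3.09 FPKM in IRI libraries 1 to 5, against 4.32, 5.21, 3.72, 4.07 and 4.58 FPKM in sham libraries 1 to 5. The groups overlapped, since IRI library 2 lay above sham libraries 3 and 4. Sms averaged 3.49 ± 0.401 FPKM in IRI and 4.38 ± 0.562 in sham (SD, n = 5 each), and fell by 0.58 ± 0.12 on the log2 scale (SE, edgeR adjusted p = 0.00128), or by 0.33 with library totals (edgeR adjusted p = 0.0229). Its pseudogene Sms-ps had 7.5 to 10.7 FPKM in IRI and 8.95 to 14.3 FPKM in sham, and all of its 150-base windows (100%) also occur in Sms. Of the 150-base windows of Sms, 15.5% occur in Sms-ps, so reads from that stretch cannot be told apart and most of Sms is outside it. With both counted together Sms was at -0.60 (edgeR adjusted p = 0.000884). Sms lies on chromosome X from 156226851 to 156275283 on the minus strand.

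Within synthesis the balance of transcripts shifted away from Odc1. Odc1 made up 69.0% to 84.3% of the summed FPKM of Odc1, Amd1, Srm and Sms in IRI, against 92.8% to 95.1% in sham. The FPKM of the other 3 enzymes summed to 42.4 to 50.7 in IRI and to 23.7 to 26.8 in sham. Odc1 exceeded Srm in level 4.33 to 10.2 times in IRI and 26.9 to 55.3 times in sham. Srm exceeded Sms 5.26 to 7.97 times in IRI and 1.61 to 2.78 times in sham. None of these 4 measures overlapped between the groups. A share or ratio within a library does not depend on the scaling between libraries, but the summed FPKM does, and is scaled by library totals.

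Sat1, which acetylates spermidine and spermine and so starts their breakdown or export, had 266, 242, 149, 176 and 181 FPKM in IRI libraries 1 to 5, against 109, 109.9, 101, 118 and 126 FPKM in sham libraries 1 to 5. The groups did not overlap, and IRI libraries 1 and 2 stood above the other IRI libraries. Sat1 averaged 203 ± 48.8 FPKM in IRI and 113 ± 9.68 in sham (SD, n = 5 each), with a log2 fold change of 0.61 ± 0.17 (SE, edgeR adjusted p = 0.00836). The fold change was smaller than that of Smox, but Sat1 was the most abundant of the 10 transcripts per length in every IRI library. Sat1 lies on chromosome X from 153996128 to 153999445 on the minus strand.

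Smox, which oxidises spermine straight to spermidine, had 13.2, 12.3, 11.6, 11.6 and 13.2 FPKM in IRI libraries 1 to 5, against 1.97, 2.26, 1.58, 1.89 and 2.15 FPKM in sham libraries 1 to 5. The IRI libraries agreed closely with each other and lay far above the sham libraries. Smox averaged 12.4 ± 0.802 FPKM in IRI and 1.97 ± 0.262 in sham (SD, n = 5 each), and its log2 fold change was 2.40 ± 0.12 (SE, edgeR adjusted p = 4.36e-08). It ranked 326 among the 13324 tested genes, so that 2.44% had a higher fold change. IRI library 1, which stood apart in Odc1, did not stand apart in Smox. Smox lies on chromosome 2 from 131333416 to 131367842 on the plus strand.

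Paox, the peroxisomal oxidase of acetylated polyamines, had 1.59, 2.60, 2.21, 2.45 and 2.20 FPKM in IRI libraries 1 to 5, against 0.910, 1.51, 1.07, 1.02 and 1.11 FPKM in sham libraries 1 to 5. It was the least abundant of the 10 transcripts per length in both groups, and the groups did not overlap. Paox averaged 2.21 ± 0.385 FPKM in IRI and 1.12 ± 0.228 in sham (SD, n = 5 each), with a log2 fold change of 0.71 ± 0.17 (SE, edgeR adjusted p = 0.0028). On chromosome 7, from 139695712 to 139717137 on the plus strand, Paox overlaps Echs1 of the minus strand by 678 bases. Echs1 averaged 1615 counts in IRI and 3085 in sham, where Paox averaged 174 and 89.2, and no source used here says whether counting used strand. Echs1, an enzyme of fatty acid oxidation, moved the other way (log2 fold change -1.20).

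**Figure D3:**
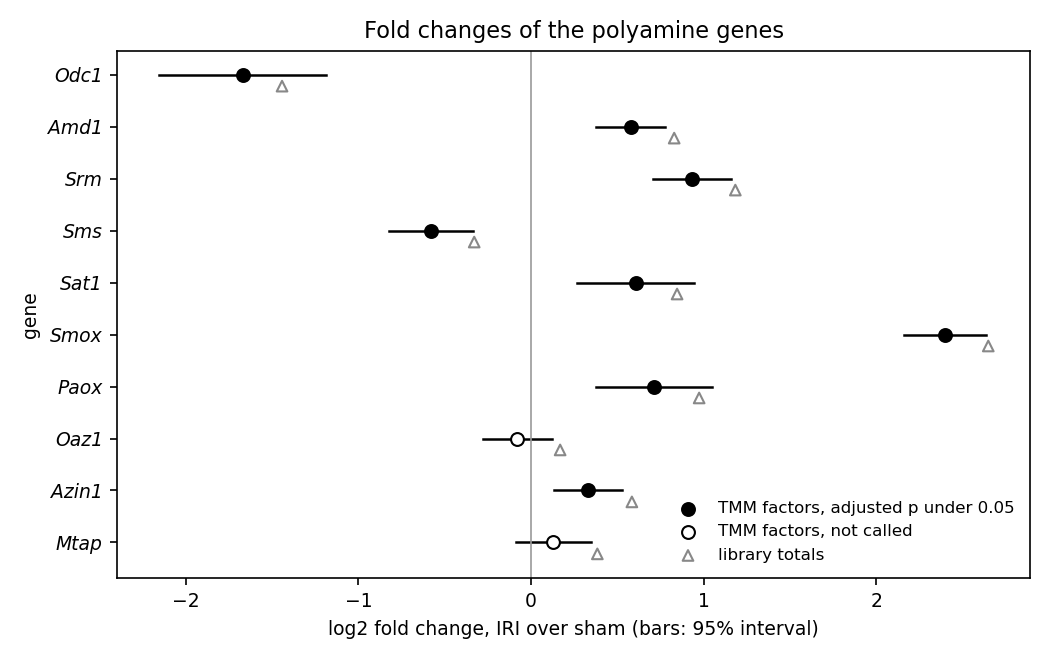
Log2 fold changes of IRI over sham for the 10 genes with TMM factors (circles, filled where called, bars for normal 95% intervals) and with library totals (triangles). Smox lies at 2.40 and Odc1 at -1.67, and the intervals of Oaz1 and Mtap cross 0 with TMM factors.

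Set against each other, transcripts of breakdown gained on those of synthesis in every IRI library. Sat1 was 1.15, 1.78, 1.32, 1.79 and 1.57 times as abundant as Odc1 per length in IRI libraries 1 to 5, against 0.304, 0.237, 0.260, 0.360 and 0.367 times in sham libraries 1 to 5. The order of these 2 transcripts was thus reversed between the groups, with Sat1 above Odc1 in all 5 IRI libraries and below it in all 5 sham libraries. The summed FPKM of Sat1, Smox and Paox was 0.996 to 1.41 times that of the 4 synthesis genes in IRI and 0.233 to 0.350 times in sham. These sums are mostly Odc1 and Sat1, since Sat1 gave 91.5% to 94.7% of the breakdown sum in IRI and 96.7% to 97.6% in sham.

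A mean that gives each gene equal weight moved the same way. The mean log2(FPKM + 1) of synthesis genes minus that of breakdown genes was 0.0654 to 0.351 in IRI and 1.27 to 1.43 in sham, a difference of -1.16. The synthesis mean alone overlapped between the groups, at 4.37 to 4.68 in IRI and 4.44 to 4.55 in sham, and the breakdown mean did not, at 4.19 to 4.50 in IRI and 3.03 to 3.28 in sham. On this scale, which rests on library totals, the difference therefore lay in the breakdown genes, as the 2 rises and 2 falls of synthesis offset each other. Among breakdown genes Smox gave the largest part, as log2(FPKM + 1) rose by 2.18 for Smox, 0.81 for Sat1 and 0.59 for Paox. Smox, which removes the propylamine group that Sms adds, was 2.97 to 4.28 times as abundant as Sms in IRI and 0.425 to 0.469 times in sham. Between the 2 oxidases, Smox exceeded Paox 4.73 to 8.29 times in IRI and 1.48 to 2.16 times in sham. No test is given for these scores and ratios, because the genes were chosen with earlier results of these data known.

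**Figure D4:**
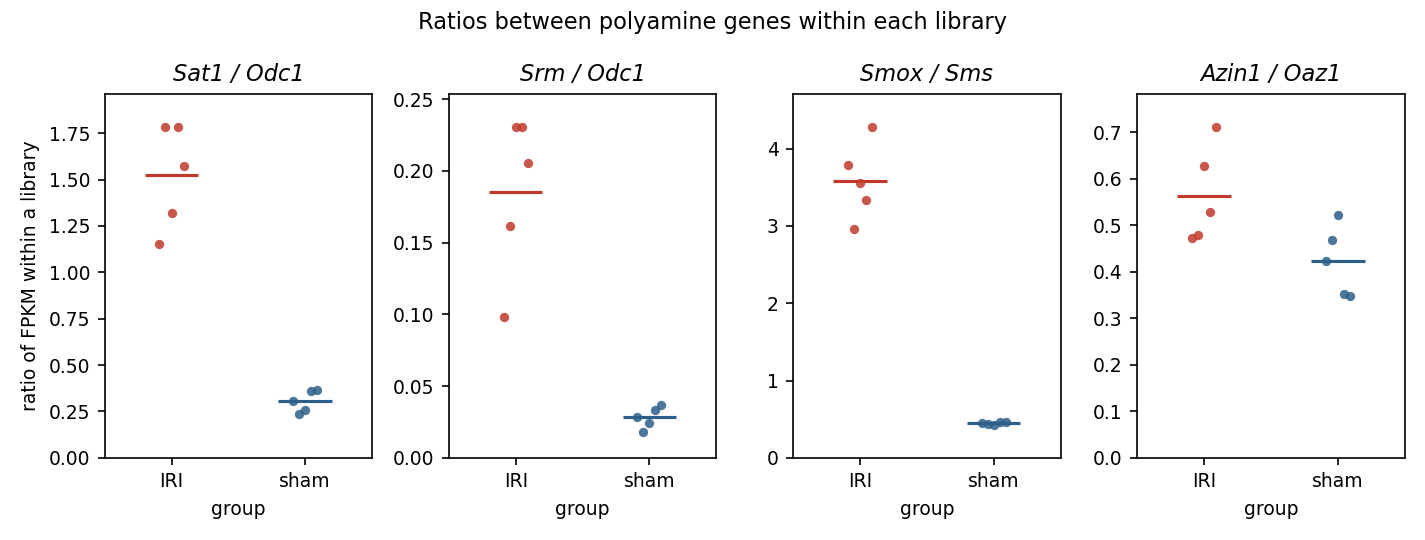
Ratios of FPKM between genes within each library (y axes from 0), IRI left of sham, with a line at each group mean of 5 libraries. Sat1 over Odc1, Srm over Odc1 and Smox over Sms do not overlap between the groups, and Azin1 over Oaz1 does.

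Oaz1 encodes antizyme, which binds ornithine decarboxylase and sends it to the proteasome, and Azin1 encodes a decoy of that enzyme which binds antizyme in its place. Azin1 had 26.7, 27.1, 31.4, 27.8 and 34.3 FPKM in IRI libraries 1 to 5, against 20.4, 22.2, 21.0, 17.6 and 17.1 FPKM in sham libraries 1 to 5. All IRI libraries lay above all sham libraries. Azin1 averaged 29.5 ± 3.27 FPKM in IRI and 19.7 ± 2.22 in sham (SD, n = 5 each), and rose by 0.33 ± 0.10 on the log2 scale (SE, edgeR adjusted p = 0.0123).

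Oaz1 had 56.5, 56.7, 50.05, 52.7 and 48.1 FPKM in IRI libraries 1 to 5, against 48.2, 47.4, 40.2, 49.96 and 49.1 FPKM in sham libraries 1 to 5. The groups overlapped, and the log2 fold change of -0.08 ± 0.10 (SE, 95% interval -0.28 to 0.12, edgeR adjusted p = 0.503) passed no threshold and took the other sign with library totals (0.17, edgeR adjusted p = 0.106). Antizyme is made through a frameshift during translation that polyamines promote, which transcript counts do not measure. The ratio of Azin1 to Oaz1 was 0.473 to 0.712 in IRI and 0.349 to 0.522 in sham, and overlapped between the groups. Counts of the pseudogene Oaz1-ps, added to those of Oaz1, left the log2 fold change at -0.10 (edgeR adjusted p = 0.417). Oaz1 lies on chromosome 10 from 80662490 to 80665124 on the plus strand and Azin1 on chromosome 15 from 38487671 to 38519510 on the minus strand.

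Mtap, which recycles the methylthioadenosine left by Srm and Sms toward methionine, had 10.27, 10.14, 14.6, 12.15 and 14.99 FPKM in IRI libraries 1 to 5, against 9.60, 8.65, 10.18, 8.99 and 10.22 FPKM in sham libraries 1 to 5. IRI library 2 lay below sham libraries 3 and 5, IRI library 1 lay just above the sham range, and IRI libraries 3 to 5 lay clear of it. The mean was 12.4 ± 2.30 FPKM in IRI and 9.53 ± 0.702 in sham (SD, n = 5 each). The log2 fold change of 0.13 ± 0.11 (SE, 95% interval -0.09 to 0.35, edgeR adjusted p = 0.317) was not called with TMM factors, and was called with library totals (0.38, edgeR adjusted p = 0.0146). Mtap lies on chromosome 4 from 89055359 to 89099318 on the plus strand.

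By mean FPKM the order in IRI was Sat1, Odc1, Oaz1, Azin1, Srm, Amd1, Mtap, Smox, Sms and Paox, and in sham Odc1, Sat1, Oaz1, Azin1, Amd1, Srm, Mtap, Sms, Smox and Paox. Neighbours whose libraries overlapped in IRI were Sat1 and Odc1 (149 to 266 and 98.6 to 230.0 FPKM) and Mtap and Smox (10.1 to 15.0 and 11.6 to 13.2 FPKM). In sham the libraries of Amd1, Srm and Mtap overlapped, at 9.17 to 12.3, 8.40 to 12.7 and 8.65 to 10.2 FPKM. Smox thus stood at the level of Mtap in IRI and below Sms in sham.

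Other cell types also differed between the groups, and their part in these results was not tested. Summed over the 6 neutrophil markers, the level was 19.6 to 102 FPKM in IRI and 0.940 to 3.27 in sham, with IRI library 1 highest. The 6 monocyte and macrophage markers summed to 31.7 to 55.8 FPKM in IRI and 21.97 to 35.0 in sham, the 4 endothelial markers to 59.7 to 88.9 in IRI and 34.7 to 51.5 in sham, and the 4 T and B cell markers to 0.180 to 0.410 in IRI and 0.770 to 2.28 in sham. Thick ascending limb markers (4) summed to 1392 to 2595 FPKM in IRI and 627 to 1519.7 in sham, and collecting duct markers (4) to 206 to 571 in IRI and 200.2 to 429.9 in sham. Erythroid markers (3) summed to 164 to 311 FPKM in IRI and 95.8 to 159.6 in sham. The 3 injured tubule markers summed to 1723 to 2789 FPKM in IRI and 0.620 to 3.05 in sham. With no filter on low values, edgeR called higher 6 of 6 neutrophil markers, 3 of 3 injured tubule markers, 3 of 4 endothelial markers and 2 of 3 erythroid markers. The thick ascending limb had 2 higher and 2 lower of 4, the collecting duct 1 higher and 2 lower of 4, monocytes and macrophages 1 higher and 2 lower of 6, and T and B cells 4 lower of 4. In all, the fit with no filter called 5892 genes higher and 5486 lower. With the filter, 34.5% of all tested genes were called higher and 32.4% lower. All 4 T and B cell markers were under 1 FPKM in every library. No listed marker was at 0 in all libraries.

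Further genes of the pathway were taken as 6 lists of 32 genes in all, of which 24 passed the filter, with 9 higher, 10 lower and 5 not called, where 34.5% of all tested genes were called higher and 32.4% lower. Their median log2 fold change was -0.14, and that of all tested genes 0.05. These shares are near those of all tested genes. The counts of each list below stand against the same 34.5% and 32.4%. Of these genes 8 missed the filter, so the counts do not cover the lists in full.

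Homologues and the terminal oxidase gave 1 higher, 2 lower and 1 not called of 4 tested (6 listed). Azin2, a second antizyme inhibitor, rose by 0.91 ± 0.15 (log2 ± SE, edgeR adjusted p = 0.0002), at 2.75 ± 0.382 FPKM in IRI and 1.24 ± 0.135 in sham (SD, n = 5 each). Sat2, a homologue of Sat1 known in humans to act mainly on thialysine, fell by 1.75 ± 0.17 (edgeR adjusted p = 3.88e-06), at 5.51 ± 1.05 FPKM in IRI and 15.7 ± 2.54 in sham. Sat1 and its homologue thus moved in opposite directions. Oaz2, a second antizyme, fell by 0.47 ± 0.11 with TMM factors (edgeR adjusted p = 0.00205), but was not called with library totals (-0.21, edgeR adjusted p = 0.0992).

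Spermidine is also the donor for hypusine, a modified lysine of the translation factor Eif5a. Of the 4 genes of this route 3 were called higher and 1 was not called, where 34.5% of all tested genes were called higher. With no filter on low values 2 of the 4 were called higher. Eif5a2, the less abundant Eif5a paralogue, rose by 1.61 ± 0.22 (edgeR adjusted p = 4.29e-05), with 4.83 ± 1.08 FPKM in IRI and 1.33 ± 0.395 in sham (SD, n = 5 each). Dhps, the enzyme that transfers the spermidine group, rose by 0.40 ± 0.12 (edgeR adjusted p = 0.0105). Eif5a was higher by 0.29 ± 0.11 (edgeR adjusted p = 0.0328), a call lost without sham replicate 2 (edgeR adjusted p = 0.0677), 3 (edgeR adjusted p = 0.0813) or 5 (edgeR adjusted p = 0.0515), where the log2 fold change was 0.24 to 0.30, and also with no filter on low values (0.32, edgeR adjusted p = 0.0556).

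For polyamine transport 10 genes were listed and 7 tested, and 2 of them were higher, 4 lower and 1 not called. Of all tested genes 34.5% were called higher and 32.4% lower. With library totals 2 transport genes were called higher and 3 lower, where 47.4% and 23.6% of all tested genes were. Slc22a2 (-3.13 ± 0.41, edgeR adjusted p = 3.42e-05) and Slc47a1 (-2.37 ± 0.28, edgeR adjusted p = 1.3e-05), organic cation carriers of the tubule, fell. Slc22a2 had 8.25 to 40.6 FPKM in IRI, against 148 to 172 in sham, and was highest in IRI library 1, as Odc1 and the proximal tubule markers were.

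Of the 5 genes listed for ornithine and arginine supply, 3 were tested, with 1 higher, 1 lower and 1 not called. Arg2, the mitochondrial arginase that makes ornithine, the substrate of Odc1, rose by 3.6 ± 0.32 (log2 ± SE, edgeR adjusted p = 1.76e-06). It had 35.8, 51.8, 52.3, 68.2 and 46.8 FPKM in IRI libraries 1 to 5, against 2.87, 1.05, 3.93, 4.14 and 5.74 FPKM in sham libraries 1 to 5. Every IRI library lay above every sham library. Oat, an aminotransferase that interconverts ornithine and glutamate semialdehyde, was not called (-0.17 ± 0.10, edgeR adjusted p = 0.169). Agmat, named for agmatine hydrolysis to putrescine, had 0.292 ± 0.0572 FPKM in IRI and 2.10 ± 0.555 in sham (SD, n = 5 each), on 6 to 9 counts per IRI library. It passed the filter only through the sham libraries, so its call is no support for the count of lower genes. With no filter its log2 fold change was -3.05 (edgeR adjusted p = 3.02e-07).

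After Mtap, methionine salvage gave 2 higher and 2 lower of 4 tested (5 listed). Adi1 (-0.70 ± 0.11, edgeR adjusted p = 0.000138) and Apip (-0.60 ± 0.13, edgeR adjusted p = 0.00143) fell, while Enoph1, which acts between them, rose by 0.42 ± 0.12 (edgeR adjusted p = 0.00846). Of the 2 genes for S-adenosylmethionine supply, Mat2a was lower (-1.53 ± 0.11, edgeR adjusted p = 3.58e-07) and Mat2b was not called. Mat2a, which makes the substrate of Amd1, thus moved against Amd1.

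**Figure D5:**
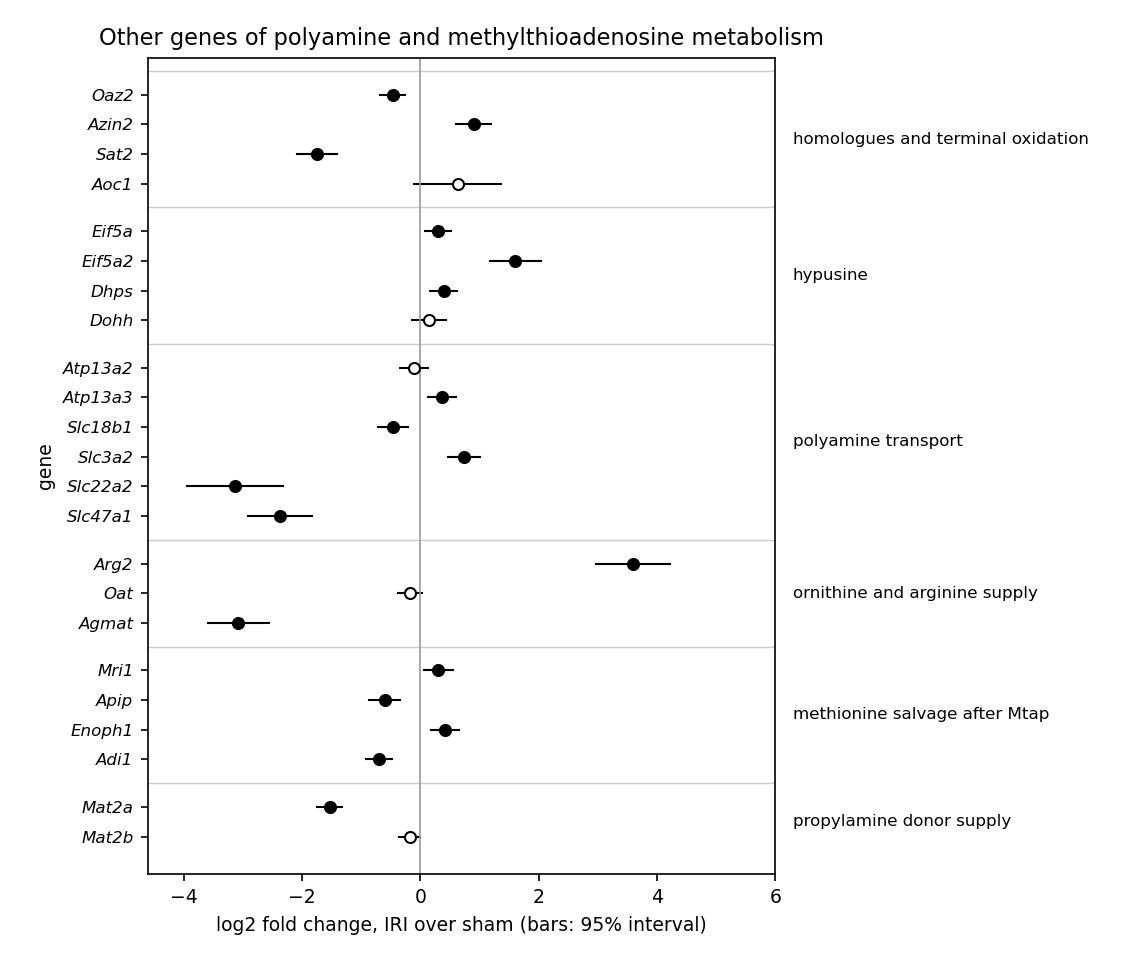
Log2 fold changes of IRI over sham with normal 95% intervals for tested genes of the 6 further lists, 1 transport gene left out. Circles are filled where called at an adjusted p under 0.05 and open where not called. Arg2 lies highest at 3.6 and Slc22a2 lowest at -3.13.

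Genes of most similar pattern were found by the root-mean-square distance between log2 CPM profiles, each centred on its own mean over the 10 libraries. Nearest to Smox were Tuba1c (distance 0.136), Mcam (0.177) and Rbm3 (0.178), with log2 fold changes of 2.32, 2.24 and 2.43. Nearest to Odc1 were Smpdl3a (0.178), Gpr137b-ps (0.185) and Nit2 (0.187), with log2 fold changes of -1.75, -1.85 and -1.81. The distance takes in the difference between the groups, so similar fold changes follow from this choice of genes.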

How the data were processed

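Poly(A) RNA of 5 IRI and 5 sham kidney libraries was sequenced, per the labels' protocols. The authors deposited whole-number counts and FPKM per gene, with exonic lengths and coordinates (GRCm39). Cutadapt 1.9.1, HISAT2 2.0.1 and HTSeq 0.6.1 appear in the submitters' processing notes with no roles or settings. Symbols were matched by identifier for 52083 genes.

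The main test was edgeR 4.0.16 in R 4.3.3 on the counts (quasi-likelihood, TMM factors), with Benjamini-Hochberg adjustment over the 13324 genes that reached 1 FPKM in at least 5 libraries. These genes held 98.9% to 99.3% of the counts per library. Standard errors are the log2 fold change over the square root of F, and 95% intervals are normal ones from them. DESeq2 1.42.0, limma 3.58.1 on log2(FPKM + 1), a replicate block, other scalings and filters, and leaving out each library were alternatives. The tests were run on simulated counts first. No pair of replicates agreed within counting error (chi-square over its degrees of freedom 7.40 to 80.7). The 10 genes and all lists were chosen with earlier results of these data known. All 10 are named. 1 transport gene is counted in its list and not reported here. Other pathway genes are named by rule, at most 3 per list, as the called genes of largest change among those averaging 1 FPKM or more in either group. Oat and Mat2b are named outside this rule, as genes not called, as are the genes under the filter given at the end.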

Additional observations from a re-analysis of the deposited data

Results flagged for a closer look

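In 82 sets of 5 libraries, 4 held a library whose gap to its nearest neighbour, as a share of the range, was above 0.71, the critical value of Dixon's test. Chance gives about 1 in 20 for independent sets, but these sets share libraries and genes, so the count does not show whether the flags are chance. Odc1 was at 230.0 FPKM in IRI replicate 1, where the other IRI libraries had 98.6 to 135. Sat2 was at 7.34 FPKM in the same library, where the others had 4.83 to 5.44. Pairs with this library had a chi-square over its degrees of freedom of 49.7 to 80.7. Other pairs of IRI libraries had 11.3 to 39.9. Oaz1 was at 40.2 FPKM in sham replicate 3, where the other sham libraries had 47.4 to 49.96. The share of Sat1 in the summed breakdown FPKM was 96.7% in sham replicate 2, where the others had 97.4% to 97.6%.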

How the results depend on the processing

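Under 19 alternatives, 6 or 7 of the 10 genes were called higher and 2 lower, and the 8 called genes kept their direction and their call. The count of 7 arose only with library totals and by limma on FPKM. With library totals 47.4% of all tested genes were called higher and 23.6% lower, against 34.5% and 32.4% with TMM factors. Oaz1 took a positive sign with library totals (0.17) and by limma on log2(FPKM + 1) (0.17) or log2(FPKM + 0.1) (0.17), all scaled by library totals, and was not called there. Mtap was called in the same 3 settings (0.38, 0.34 and 0.36). The equal-weight difference of synthesis and breakdown was -1.40 with a pseudocount of 0.1. The log2 ratio of their summed FPKM, which weights genes by level, differed by -2.04 between the groups. Without 1 library in turn the equal-weight difference was -1.20 to -1.13, Odc1 was at -1.96 to -1.53, Sat1 at 0.48 to 0.73 and Smox at 2.31 to 2.46. Same-numbered libraries did not deviate together (correlations -0.25 to 0.06, and 0 of 5 libraries correlated best with its own number). These values show no sign of pairing by number but cannot exclude it. With a replicate block, 4221 genes were higher and 4097 lower, against 4599 and 4320 without it, and the calls of the 10 genes did not change. Eif5a was no longer called with the block (0.29, edgeR adjusted p = 0.105). Agmat was at -1.25 by limma on log2(FPKM + 1), and could not be tested without any 1 sham library, since it then missed the filter. Added counts of copies, added after seeing the data, changed no call.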

Other observations

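Pathway genes under the filter were fitted with no filter, and those named here were chosen after their values were seen. Arg1, the other arginase, had 0.140 to 2.51 FPKM in IRI and 0 to 0.140 in sham (4 to 94 counts per IRI library, 0 to 5 per sham library, edgeR adjusted p = 0.000154). Atp13a4 had 4 to 12 counts per IRI library and 0 to 1 per sham library (edgeR adjusted p = 0.00404), and Slc22a3 had 1 to 4 counts per IRI library and 5 to 20 per sham library (edgeR adjusted p = 0.00807). Otc was at 0 counts in all 10 libraries. Per length, the counts given to the pseudogene Sms-ps (9.00 ± 1.31 FPKM in IRI and 11.9 ± 2.15 in sham, SD, n = 5 each) stood above those given to Sms (3.49 ± 0.401 in IRI and 4.38 ± 0.562 in sham). All 150-base windows of Sms-ps (100%) also occur in Sms, so these reads may come from Sms itself. The ratios of Srm and Smox to Sms used the FPKM of Sms alone.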
